A study of Homo sapiens with 18 samples.

Results

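This account covers 53 genes that encode assembly and export factors of the 60S ribosomal subunit, out of 17017 genes in the deposited table. They were taken by symbol from a named list, and all 53 were found in the table. The cells were MDA-MB-231, an established line of triple-negative breast carcinoma, transduced with lentiviral particles that carried either a scramble hairpin (labelled SC here) or 1 of 2 hairpins against the mRNA of fibrillarin (labelled SH2 and SH3). All groups went through puromycin selection and a short cycloheximide treatment before lysis, the scramble control included. Each lysate gave a library of cytoplasmic RNA and a library of ribosome-protected footprints from RNase I monosomes, with 3 replicates of each kind for each hairpin and for SC, or 18 libraries in 6 groups. The protocols name the hairpins knockdown 1 and 2, and no label says which of these is SH2. Nothing says that replicates came from separate cultures, so p-values measure the spread between these libraries, which may be technical.

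The large ribosomal subunit is put together in the nucleolus around the 5.8S, 28S and 5S ribosomal RNAs, matured in the nucleoplasm, exported through nuclear pores and finished in the cytoplasm. Many non-ribosomal proteins bind and leave the pre-60S particle on the way: scaffold proteins and RNA helicases act in the nucleolus, AAA-ATPases strip early factors off, a nuclease complex cuts out the internal transcribed spacer ITS2, and an export adapter and cytoplasmic GTPases complete the particle. Fibrillarin, the hairpins' target, is the methyltransferase of box C/D small nucleolar ribonucleoproteins, which act on ribosomal RNA at the start of the same pathway.

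Levels are given as CPM, a read count normalised for sequencing depth by the library's TMM-adjusted total within its kind of library. The footprint-to-RNA ratio is footprint CPM over RNA CPM of the same replicate number, and a change in it is called translational efficiency. In SC and SH2 the numbers do not pair RNA with footprint libraries throughout, so SDs of these ratios depend on the numbering. Changes are log2 fold changes from edgeR's quasi-likelihood test with their standard errors (SE). A gene is said to have risen, fallen or changed only where its Benjamini-Hochberg adjusted p over all genes tested was under 0.05. One set of SC libraries served as control for SH2 and for SH3, so the results of the hairpins share it. In bulk lysates, fewer cells of a type and less RNA per cell cannot be told apart.

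RNA libraries held 23469830 to 27629488 counts, and footprint libraries 1662705 to 6098648, so footprint values rest on fewer counts. Median footprint totals were 5787585 in SC, 3100696 in SH2 and 2739747 in SH3, so footprint depth differed with treatment. The lowest SC total, 2486598, lay within the SH3 range. FBL, the targeted gene, stood at 349 to 421 CPM in SC RNA and at 1.26 to 11.2 CPM in the 6 hairpin RNA libraries. Of the markers of this mesenchymal-like line, VIM, CD44, AXL and EGFR were present and SPARC stayed under 1 CPM in RNA. EGFR RNA stood at 174 to 225 CPM in SC, 904 to 928 with SH2 and 581 to 646 with SH3. With SH2, AXL RNA stood at 758 to 969 CPM against 1207 to 1787 in SC, and CD44 RNA at 454 to 556 against 256 to 404, while with SH3 both overlapped SC. VIM RNA overlapped SC with either hairpin. The part of these shifts in the results below was not tested. The hormone receptor genes ESR1 and PGR and the epithelial gene CDH1 stayed under 0.5 CPM in every RNA library, while EPCAM reached 9.15 CPM, GATA3 13.2 CPM and FOXA1 1.14 CPM.

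The comparison with SC asks which of these genes differ in RNA or in footprints after fibrillarin knockdown. More of them were higher than lower in RNA with either hairpin. In SH2 RNA 20 of the 53 rose and 10 fell, or 30 in all, and of the 12710 genes tested 61.4% were called, 31.1% higher and 30.4% lower. In SH3 RNA 23 rose and 7 fell, against 53% of all genes called, 27.8% higher and 25.2% lower. The share of members called in either direction, 56.6% with each hairpin, was therefore near the background, while 37.7% of members in SH2 and 43.4% in SH3 were called higher. The median log2 change of members in RNA was 0.19 in SH2 and 0.23 in SH3, beside 0.01 and 0.03 over all genes tested. Without SH3 replicate 2 the SH3 median was 0.15. Scaling by plain totals gave a SH3 RNA split of 30 higher and 4 lower. Under that scaling the median over all genes was 0.12, and the share of all genes called is not given here. Without SH3 replicate 2 the SH3 RNA count fell from 30 to 19, and without SC replicate 3 it was 20.

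Footprints could be tested for 52 of the 53, since PPAN had 0 to 8 footprint counts per library. In SH2 footprints 11 rose and 9 fell, against 44.2% of 10345 genes called, 21.0% higher and 23.2% lower. In SH3 footprints 13 rose and 6 fell, against 35.9% of genes called, 16.9% higher and 19.0% lower. These shares of called members are near the background as well. Median changes in footprints were 0.09 in SH2 and 0.18 in SH3, beside 0.00 and -0.01 over all genes tested, and without SC replicate 1 the SH3 median was 0.27. Without SH3 replicate 2 the SH3 footprint count was 12 in place of 19. The summed RNA of the 53 genes was 5332 ± 184 CPM with SC, 6165 ± 165 with SH2 and 6193 ± 497 with SH3 (SD, 3 libraries in each group), and their summed footprints were 5960 ± 166, 6338 ± 229 and 6598 ± 500.2 CPM.

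**Figure D1:**
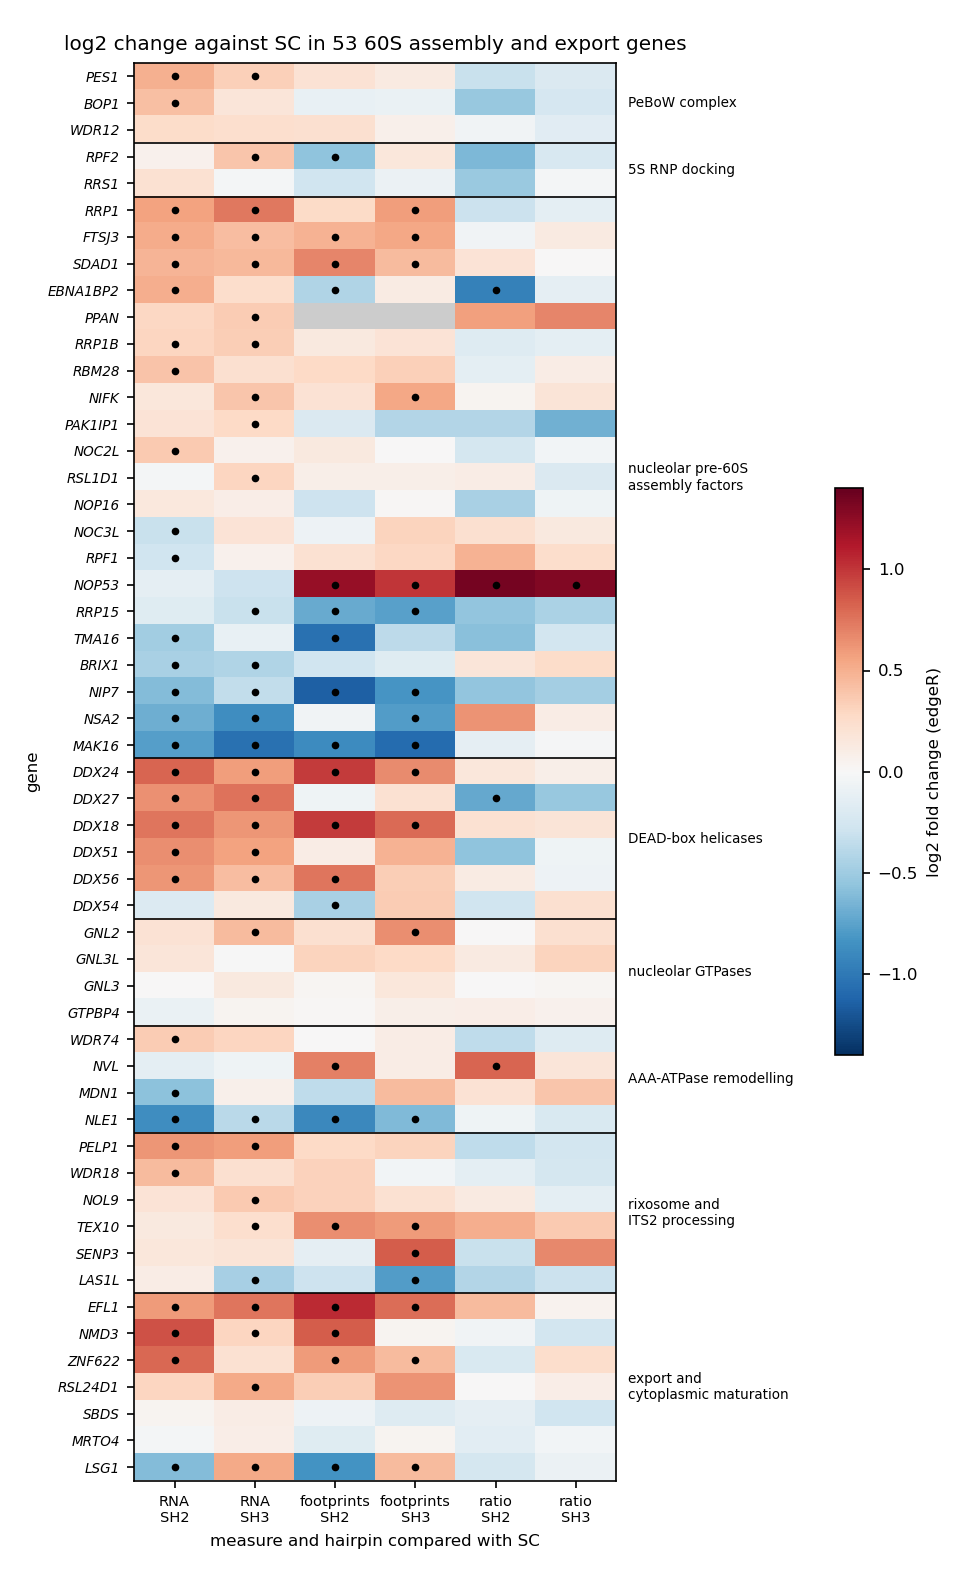
Log2 fold change against SC of the 53 genes (rows, by role) in RNA, footprints and the footprint-to-RNA ratio for SH2 and SH3 (columns), with colour from blue (lower) to red (higher), a dot where the edgeR adjusted p was under 0.05, and grey where PPAN footprints were not tested. Most dots in the RNA columns are red, NOP53 alone has a dot in both ratio columns, and LSG1 is blue in SH2 and red in SH3.

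RNA and footprints were compared gene by gene. In SH2, 13 of 52 genes were called in RNA and in footprints in the same direction, 16 in RNA only and 6 in footprints only, and EBNA1BP2 was called higher in RNA and lower in footprints. In SH3, 16 were called in both in the same direction, 13 in RNA only, 3 (NOP53, SENP3 and ZNF622) in footprints only and 0 in opposite directions. The shares of all genes in these joint classes were not computed, so these counts have no background. A call in 1 measure and not in the other does not show that they differ. That difference is the translational efficiency test. It called 2 members higher and 2 lower in SH2, against 3.9% of all 12531 genes tested, 1.44% higher and 2.46% lower. In SH3 it called 1 higher and 0 lower, against 0.686% of genes, 0.375% higher and 0.311% lower. At an unadjusted p under 0.05 there were 17 members in SH2 (32.1%, against 17.9% of all genes tested) and 7 in SH3 (13.2%, against 12.6%), the latter near the background. DESeq2's Wald test called 10 in SH2 and 2 (NOP53 and PAK1IP1) in SH3. The shares of all genes above are from edgeR, and that of DESeq2 is not given here, so these 2 counts have no background.

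**Figure D2:**
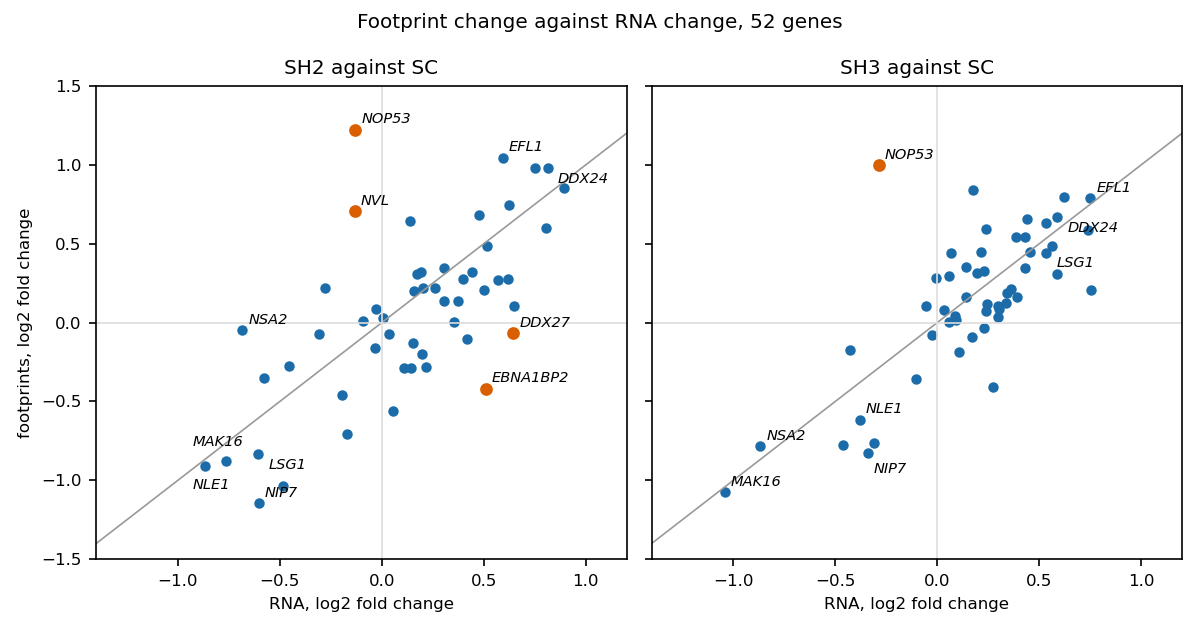
Footprint log2 fold change (vertical) against RNA log2 fold change (horizontal) for the 52 genes tested in both, with SH2 against SC on the left and SH3 against SC on the right; the diagonal marks equal change and orange points mark genes whose translational efficiency changed. NOP53 lies far above the diagonal in both panels, while EBNA1BP2 and DDX27 lie below it and NVL above it with SH2.

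NOP53 was the one member whose translational efficiency changed with both hairpins. It encodes a nucleolar protein of the pre-60S particle that helps bring the RNA exosome to the ITS2 spacer. Among members called in both hairpins its footprints had the largest mean rise, and its RNA did not pass the test in either hairpin. NOP53 RNA stood at 160.4, 134 and 174 CPM in the SC libraries, 136, 137 and 155 in SH2, and 113, 146 and 126 in SH3. NOP53 footprints stood at 58.9, 53.9 and 62.1 CPM in SC, 139, 117 and 154 in SH2, and 87.2, 139 and 122 in SH3. Every hairpin library was above every SC library in footprints, while the RNA ranges of SC and each hairpin overlapped.

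The footprint-to-RNA ratio of NOP53 was 0.375 ± 0.023 with SC, 0.957 ± 0.085 with SH2 and 0.901 ± 0.11 with SH3 (SD, 3 libraries in each group). In SC that put NOP53 at rank 51 of 52 members from the highest ratio, with 12.7% of all genes tested below it; in SH2 it stood at rank 32 with 53.6% of genes below, and in SH3 at rank 37 with 52.2% below. Its translational efficiency rose by a log2 change of 1.34 in SH2 (SE 0.21, adjusted p 0.00151 by edgeR) and 1.30 in SH3 (SE 0.22, adjusted p 0.00508 by edgeR). Footprints changed by 1.22 (SE 0.17, adjusted p 4.03e-05 by edgeR) and 1.00 (SE 0.17, adjusted p 0.000385 by edgeR), and RNA by -0.13 (SE 0.12, adjusted p 0.354 by edgeR) and -0.29 (SE 0.12, adjusted p 0.0538 by edgeR). With the replicate block NOP53 RNA in SH3 was called lower (-0.28, edgeR adjusted p 0.037). By DESeq2 in the authors' deposited table it was lower as well (-0.31, adjusted p 0.0315). The SH2 translational efficiency call held under all 13 alternatives. The SH3 call was lost without SC replicate 3, where the change was 1.27 at an edgeR adjusted p of 0.0505, within a range of 8.16e-06 to 0.0505 over its 13 alternatives. Per RefSeq, the gene region of NOP53 on chromosome 19 also holds the small nucleolar RNA gene SNORD23, and whether its reads could enter the gene's count was not tested.

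The 60S ribosomal protein mRNAs, which carry a 5' terminal oligopyrimidine (TOP) start, also moved in ratio. They did so with lower RNA, whereas NOP53 had higher footprints. Of 47 such genes 0 were called higher and 45 lower in SH2 RNA, and 0 higher and 43 lower in SH3 RNA. Their translational efficiency was called higher for 23 genes in SH2 and 12 in SH3, and lower for 0 in either, with median changes of 0.58 and 0.57. The 53 assembly factors had medians of -0.12 and -0.03 in the same measure, beside -0.02 and -0.04 over all genes tested. Without SH2 replicate 2 the SH2 median of the 53 was -0.01, and with footprints thinned to 1 depth it was -0.06. The SH3 median was 0.02 without SC replicate 1, and 0.01 with thinned footprints or without SH3 replicate 3.

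The start regions of the members were therefore read for a TOP-like start: a C at the annotated transcription start followed by 4 pyrimidines. RefSeq windows (GRCh38.p14, 250 bases before to 50 after the start) were given for 46 of the 53 genes. A TOP-like start was found in 5 of these 46 (10.9%), in 7.42% of 10298 protein-coding genes tested in RNA, and in 28 of 38 60S ribosomal protein genes (73.7%). The 5 windows are shown because NOP53 is among them. Each runs from 20 bases before the start to 25 bases from it on, read on the gene's strand, and capitals mark the pyrimidine run from the start.

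NOP53, chr19:47745526-47745570, plus strand: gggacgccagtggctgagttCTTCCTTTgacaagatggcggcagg
EBNA1BP2, chr1:43172546-43172590, minus strand: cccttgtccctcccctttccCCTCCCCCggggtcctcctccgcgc
DDX54, chr12:113185454-113185498, minus strand: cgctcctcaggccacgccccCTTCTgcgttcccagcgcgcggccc
WDR18, chr19:982908-982952, plus strand: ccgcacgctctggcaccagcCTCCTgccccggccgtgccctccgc
NLE1, chr17:35142279-35142323, minus strand: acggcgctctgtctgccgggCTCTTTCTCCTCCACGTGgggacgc

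The run was 8 pyrimidines long in NOP53 and in EBNA1BP2, 5 in DDX54 and WDR18, and 13 in NLE1, where the capitals also cover the E-box CACGTG that overlaps its end. The 5 genes did not move together in ratio. Translational efficiency rose in NOP53 with both hairpins and fell in EBNA1BP2 with SH2 by a log2 change of 0.94. The other 3 did not pass the test: DDX54 changed by -0.28 in SH2 and 0.23 in SH3, WDR18 by -0.13 and -0.25, and NLE1 by -0.06 and -0.22. A match describes these letters at the annotated start only.

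The same windows were searched on either strand for the E-box CACGTG, the motif bound by MYC and related factors that many ribosome assembly genes carry. At least 1 window held it in 14 of the 46 member genes (30.4%), in 12.5% of the 10298 protein-coding genes tested in RNA, in 18 of 42 40S assembly factor genes (42.9%) and in 2 of 38 60S ribosomal protein genes (5.26%). In 8 members (17.4%) it began between 1 base before and 20 bases after the start, a zone set after the positions were seen. The share in that zone was 1.07% of the 10298 genes. It was 9 of 42 40S assembly factor genes (21.4%) and 0 of 38 60S ribosomal protein genes. NLE1, shown above, is 1 of the 8, and 3 more are shown with the E-box in capitals.

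PES1, chr22:30591886-30591930, minus strand: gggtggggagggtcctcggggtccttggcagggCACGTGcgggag
GNL3, chr3:52686012-52686056, plus strand: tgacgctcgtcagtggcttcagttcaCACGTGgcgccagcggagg
MRTO4, chr1:19251785-19251829, plus strand: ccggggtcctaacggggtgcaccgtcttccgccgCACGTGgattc

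Members with and without the E-box in the window were given side by side. The 14 with it had a median RNA change of 0.07 in SH2, with 4 higher and 4 lower, and 0.22 in SH3, with 6 higher and 1 lower. The 32 without it had medians of 0.22 and 0.23, with 13 higher and 5 lower in each hairpin.

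The other members whose translational efficiency changed did so in SH2. EBNA1BP2, a nucleolar pre-60S scaffold protein, had RNA of 242, 252 and 267 CPM in SC, 351, 345 and 387 in SH2, and 250.1, 355 and 296 in SH3. Its footprints were 524, 356 and 413 CPM in SC, 373, 302 and 295 in SH2, and 468, 488 and 447 in SH3. All SH2 libraries lay above SC in RNA, and in footprints 2 of 3 SH2 libraries lay below every SC library. RNA rose by 0.51 in SH2 (SE 0.12, adjusted p 0.00179 by edgeR), footprints fell by 0.42 (SE 0.15, adjusted p 0.034 by edgeR) and translational efficiency fell by 0.94 (SE 0.20, adjusted p 0.0118 by edgeR). In SH3 the translational efficiency change was -0.12 (SE 0.20, adjusted p 0.86 by edgeR), and the difference between hairpins was -0.82 (edgeR adjusted p 0.105). The footprint call rests on single libraries: without SC replicate 1 the change was -0.25 (edgeR adjusted p 0.175, range over its 13 alternatives 0.00729 to 0.175), and it was also lost without SC replicate 3, SH2 replicate 2 or SH2 replicate 3. The translational efficiency call was lost without SH2 replicate 3 (-0.82, edgeR adjusted p 0.0894, range over its 13 alternatives 0.000565 to 0.0894).

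DDX27, an RNA helicase of the PeBoW-associated early particle, rose in RNA with both hairpins while its footprints did not pass the test. DDX27 RNA stood at 145, 128 and 138 CPM in SC, 197, 218 and 227 in SH2, and 205, 261 and 228 in SH3. Footprints stood at 245, 218 and 220.3 CPM in SC, 248, 201 and 205 in SH2, and 228, 285 and 277 in SH3. The RNA groups did not overlap with SC and the footprint groups did. RNA rose by 0.64 in SH2 (SE 0.10, adjusted p 0.000124 by edgeR) and 0.75 in SH3 (SE 0.11, adjusted p 5.09e-05 by edgeR), and translational efficiency fell by 0.72 in SH2 (SE 0.17, adjusted p 0.022 by edgeR). In SH3 its translational efficiency change was -0.53 (SE 0.17, adjusted p 0.156 by edgeR), and the difference between SH2 and SH3 was -0.19 (edgeR adjusted p 0.715). The SH2 call was lost without SC replicate 3 (-0.75, edgeR adjusted p 0.0783), without SH2 replicate 2 (-0.66, 0.0733) and without SH2 replicate 3 (-0.63, 0.138), within a range of 0.00146 to 0.138 over its 13 alternatives.

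NVL, the AAA-ATPase that releases WDR74 from the early particle, had higher footprints in SH2 at an RNA level that did not pass the test. NVL RNA stood at 55.0, 56.6 and 53.5 CPM in SC, 51.5, 52.6 and 46.4 in SH2, and 55.1, 51.1 and 52.6 in SH3. Footprints stood at 26.8, 16.01 and 21.7 CPM in SC, 34.4, 38.2 and 35.0 in SH2, and 19.9, 28.8 and 21.7 in SH3. The 3 SH2 footprint libraries were above all others. Footprints rose by 0.71 in SH2 (SE 0.20, adjusted p 0.0091 by edgeR) and translational efficiency by 0.81 (SE 0.21, adjusted p 0.0294 by edgeR). The last call was lost under 7 of 13 alternatives, with adjusted p from 0.000729 to 0.124. With the replicate block the change was 0.85 (edgeR adjusted p 0.0898). The call was also lost in the fits without SC replicate 2 (0.66), SC replicate 3 (0.82), SH2 replicate 1 (0.86), SH2 replicate 2 (0.79) and SH2 replicate 3 (0.79).

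**Figure D3:**
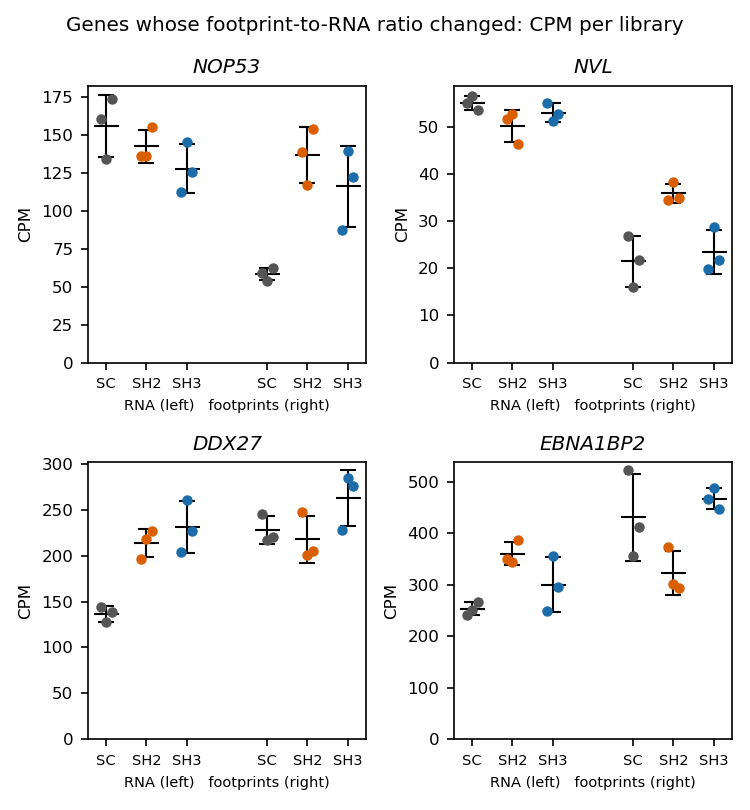
CPM per library (points), group mean and SD (bars, n = 3) of NOP53, NVL, DDX27 and EBNA1BP2 in RNA (left of each panel) and footprints (right). NOP53 footprints in SH2 and SH3 lie above SC at overlapping RNA, and DDX27 RNA lies above SC at overlapping footprints.

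Between SH2 and SH3 no member differed in translational efficiency by edgeR, with 0 called, against 0.016% of all genes tested. At an unadjusted p under 0.05 there were 7 (13.2%), near the 11.7% of all genes. DESeq2's Wald test called 3, EBNA1BP2, NVL and SENP3, and its share of all genes is not given here.

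The level of the ratio itself varied widely among the members in SC. WDR12 had the highest, 2.91 ± 0.44, followed by NIFK (2.42 ± 0.64), RRP15 (2.21 ± 0.066), NIP7 (2.13 ± 0.28) and LAS1L (2.02 ± 0.098). Neighbours in this order lay within 1 SD of each other, while WDR12 stood above the other 3 below NIFK by more than their SDs. SENP3 had the lowest, 0.231 ± 0.051, followed by NOP53, NVL (0.391 ± 0.10), MDN1 (0.481 ± 0.071) and DDX54 (0.4999 ± 0.075), all SD with n = 3. SENP3 lay below NOP53 by more than their SDs, and the next neighbours did not differ beyond theirs. The read-through gene SENP3-EIF4A1 is counted separately, and whether it took reads from SENP3 was not tested. RefSeq lists 9 named pseudogenes of NIFK, so its level depends on how shared reads were placed. The median over 52 members was 1.11, beside 0.905 over all genes tested in footprints, 1.13 in 40S assembly factors and 0.753 in 60S ribosomal proteins. RNA and footprints were scaled separately, so the ratios give an order of genes and no absolute number of ribosomes.

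The PeBoW complex of PES1, BOP1 and WDR12 is needed to process the precursor that holds the 28S rRNA. Of its 3 genes 2 rose in SH2 RNA and 1 in SH3 RNA, and 0 fell, beside 31.1% and 27.8% of all genes higher. In footprints edgeR and DESeq2 each called 0, with 0 at an unadjusted p under 0.05 in edgeR. PES1 RNA stood at 112, 105 and 113 CPM in SC, 150.0, 154 and 162 in SH2, and 121, 155 and 139.9 in SH3. PES1 footprints were 132, 108 and 124 CPM in SC, 139.6, 142 and 138 in SH2, and 108, 154 and 134 in SH3. RNA was above SC in all 6 hairpin libraries. It rose by 0.50 in SH2 (SE 0.10, adjusted p 0.000572 by edgeR) and 0.34 in SH3 (SE 0.10, adjusted p 0.0108 by edgeR), and footprints changed by 0.20 (SE 0.15, adjusted p 0.269 by edgeR) and 0.12 (SE 0.15, adjusted p 0.552 by edgeR). The SH3 RNA call was lost without SH3 replicate 2 (0.21) and without SH3 replicate 3 (0.30).

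BOP1 RNA stood at 393, 308 and 385 CPM in SC, 459.8, 433 and 557 in SH2, and 365, 461 and 394 in SH3. BOP1 footprints stood at 258, 359 and 355 CPM in SC, 280.3, 274 and 349 in SH2, and 264, 337 and 310.2 in SH3. BOP1 RNA rose by 0.42 in SH2 (SE 0.13, adjusted p 0.011 by edgeR), a call lost without SC replicate 2 (0.31) or SH2 replicate 3 (0.28), and changed by 0.17 in SH3 (SE 0.13, adjusted p 0.279 by edgeR). Its footprints overlapped between all groups and changed by -0.10 and -0.09 (SE 0.16 each).

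WDR12 RNA stood at 47.5, 56.8 and 55.9 CPM in SC, 54.9, 74.0 and 62.8 in SH2, and 53.5, 70.5 and 65.2 in SH3. WDR12 footprints stood at 161, 144 and 155 CPM in SC, 183, 169 and 187 in SH2, and 141, 176 and 168 in SH3. WDR12 RNA changed by 0.26 (SE 0.13, adjusted p 0.0993 by edgeR) and 0.24 (SE 0.13, adjusted p 0.137 by edgeR), and its footprints by 0.22 and 0.07, with none past the test. With the replicate block WDR12 RNA in SH2 passed it (0.25, edgeR adjusted p 0.0204, range over its 12 alternatives 0.0204 to 0.387).

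RPF2 and RRS1 dock the 5S ribonucleoprotein, made of 5S rRNA with RPL5 and RPL11, on the pre-60S particle. RPF2 RNA rose in SH3 by 0.39 (SE 0.12, adjusted p 0.0154 by edgeR) and changed by 0.06 in SH2. RPF2 footprints stood at 153, 116 and 74.6 CPM in SC, 95.5, 65.3 and 73.5 in SH2, and 141, 135 and 109 in SH3. SC replicate 1 was the highest, and SC replicate 3 lay within the SH2 range. Footprints fell by 0.56 in SH2 (SE 0.22, adjusted p 0.0489 by edgeR). That call was lost without SC replicate 1 (-0.27), SC replicate 2 (-0.55), SH2 replicate 2 (-0.43) or SH2 replicate 3 (-0.51). Median-ratio factors, plain totals and only the groups compared also lost it (-0.55 each). The SH3 RNA call was lost without SH3 replicate 2 (0.27) or SH3 replicate 3 (0.35). RRS1 passed the test in none of the comparisons, with RNA changes of 0.22 and -0.02.

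Among the 21 nucleolar pre-60S factors, 7 rose and 7 fell in SH2 RNA, and 8 rose and 5 fell in SH3 RNA. In footprints, of 20 tested, 3 rose and 5 fell in SH2, and 5 rose and 4 fell in SH3. In SH2 RNA that is 33.3% in each direction, near the background given above. MAK16, NSA2 and NIP7 were among those that fell, and RRP1, FTSJ3 and SDAD1 among those that rose.

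MAK16, a partner of RPF1 in the early particle, had the largest mean fall over both hairpins in RNA among members called in both, and the largest but for NIP7 in footprints. MAK16 RNA stood at 42.7, 34.1 and 37.1 CPM in SC, 18.9, 26.4 and 21.7 in SH2, and 16.7, 20.3 and 18.3 in SH3. Its footprints stood at 58.4, 47.2 and 51.7 CPM in SC, 35.2, 26.6 and 24.9 in SH2, and 20.5, 37.3 and 16.1 in SH3. No hairpin library reached the lowest SC library in either measure. RNA fell by 0.77 in SH2 (SE 0.14, adjusted p 0.000247 by edgeR) and by 1.04 in SH3 (SE 0.14, adjusted p 3.27e-05 by edgeR). Footprints fell by 0.88 (SE 0.24, adjusted p 0.00723 by edgeR) and by 1.08 (SE 0.25, adjusted p 0.00319 by edgeR). Its ratio was 1.38 ± 0.012 with SC, 1.34 ± 0.46 with SH2 and 1.32 ± 0.49 with SH3, so that the SDs overlapped. SH3 footprints of MAK16 rest on as few as 35 counts in a library.

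NIP7, which binds FTSJ3, had RNA of 63.8, 56.1 and 64.2 CPM in SC, 39.9, 41.1 and 40.1 in SH2, and 44.3, 55.7 and 45.4 in SH3. Its footprints were 139, 134 and 118 CPM in SC, 61.5, 56.9 and 58.3 in SH2, and 70.2, 81.1 and 68.7 in SH3. Every hairpin library lay below every SC library in both measures, with the wider gap in footprints. RNA fell by 0.60 in SH2 (SE 0.11, adjusted p 0.000239 by edgeR) and by 0.34 in SH3 (SE 0.11, adjusted p 0.015 by edgeR). Footprints fell by 1.15 (SE 0.14, adjusted p 1.03e-05 by edgeR) and by 0.82 (SE 0.14, adjusted p 0.000295 by edgeR). Translational efficiency changed by -0.55 (edgeR adjusted p 0.0563) and -0.47 (edgeR adjusted p 0.199), short of the threshold. The SH3 RNA call was lost without SC replicate 3 (-0.31) and with plain library totals (-0.25).

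NSA2, a nucleolar factor that stays on the particle into the nucleoplasm, had RNA of 77.2, 73.7 and 74.4 CPM in SC, 45.7, 57.8 and 36.8 in SH2, and 43.3, 40.8 and 39.2 in SH3. Its footprints were 148, 150.0 and 124 CPM in SC, 145, 131 and 132 in SH2, and 77.9, 86.6 and 79.9 in SH3. RNA was low with both hairpins, while footprints were low in SH3 and overlapped SC in SH2. RNA fell by 0.68 (SE 0.13, adjusted p 0.000491 by edgeR) and 0.87 (SE 0.13, adjusted p 0.000111 by edgeR). Footprints changed by -0.05 in SH2 (SE 0.13, adjusted p 0.795 by edgeR) and fell by 0.78 in SH3 (SE 0.14, adjusted p 0.000404 by edgeR), and the hairpins differed by 0.73 (edgeR adjusted p 0.00118). The translational efficiency of NSA2 changed by 0.63 in SH2 (edgeR adjusted p 0.0553) and 0.10 in SH3. RefSeq lists 7 named pseudogenes of NSA2, and how reads shared with them were counted is not given in the sources used here.

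RRP15, another early factor, had footprints of 178, 166 and 169.5 CPM in SC, 121, 103 and 91.6 in SH2, and 86.1, 117 and 97.8 in SH3. All hairpin libraries were below SC. Footprints fell by 0.71 (SE 0.15, adjusted p 0.00116 by edgeR) and 0.77 (SE 0.15, adjusted p 0.000996 by edgeR), and RNA changed by -0.17 and fell in SH3 by 0.31, a call lost without SC replicate 3 (-0.29). TMA16 fell in SH2 by 0.48 in RNA and 1.04 in footprints, and in SH3 changed by -0.11 and -0.36 without passing the test. BRIX1, a member of the Brix domain family, fell in RNA by 0.46 in SH2 and 0.43 in SH3, with footprint changes of -0.27 and -0.17. NOC3L fell in SH2 RNA by 0.31 and RPF1 by 0.28, the latter a call lost without any 1 of 5 libraries, down to -0.18 without SH2 replicate 3.

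RRP1 had the largest rise in RNA of the nucleolar group, with changes of 0.57 in SH2 (SE 0.11, adjusted p 0.000579 by edgeR) and 0.74 in SH3 (SE 0.11, adjusted p 0.000106 by edgeR). RRP1 footprints changed by 0.27 in SH2 and rose by 0.58 in SH3. FTSJ3, the relative of the yeast ribosomal RNA methyltransferase Spb1, rose in RNA by 0.52 and 0.43 and in footprints by 0.49 and 0.54. Without SC replicate 3 the FTSJ3 footprint changes were 0.43 and 0.49, short of the threshold, as they were without SH2 replicate 1 (0.42) and without SH3 replicate 2 (0.37). SDAD1 rose in RNA by 0.48 and 0.45 and in footprints by 0.68 and 0.44, and its SH3 footprint call was lost without SC replicate 3 (0.40), SH3 replicate 2 or SH3 replicate 3 (0.44 each).

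Smaller rises in RNA were called for RRP1B with both hairpins (0.30 and 0.34), for RBM28 (0.40) and NOC2L (0.37) in SH2, and for NIFK (0.38), PPAN (0.36), RSL1D1 (0.30) and PAK1IP1 (0.27) in SH3. Of these 8 calls 6 were lost without at least 1 library, the exceptions being RRP1B in SH2 and RBM28. Without SH3 replicate 2 the changes were 0.26 in RRP1B, 0.23 in NIFK, 0.28 in PPAN, 0.19 in RSL1D1 and 0.17 in PAK1IP1, and without SH2 replicate 3 that of NOC2L was 0.27. NIFK footprints rose in SH3 by 0.54, or 0.46 and short of the threshold without SH3 replicate 2. With 9 named pseudogenes of NIFK, its counts depend on how shared reads were placed. NOP16 passed no test. PPAN was low throughout, at 6.85 to 9.66 CPM in RNA. The read-through gene PPAN-P2RY11 is counted separately, and whether it took reads from PPAN was not tested.

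The DEAD-box RNA helicases DDX18, DDX24, DDX27, DDX51, DDX54 and DDX56 unwind or remodel RNA in the early particle. Of these 6, 5 rose in RNA with each hairpin and 0 fell, with medians of 0.65 and 0.58. Of all genes tested 31.1% rose in SH2 RNA and 27.8% in SH3 RNA. In footprints 3 rose and 1 fell in SH2, and 2 rose in SH3, beside 21.0% and 16.9% of all genes higher. DDX54 was the member of the group that did not rise in RNA with either hairpin.

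DDX24 RNA stood at 157, 179 and 185 CPM in SC, 330.3, 286 and 299 in SH2, and 271, 253 and 260.3 in SH3. Its footprints were 164, 131 and 136 CPM in SC, 286, 322 and 242 in SH2, and 232, 225 and 228 in SH3. The groups did not overlap with SC in either measure. RNA rose by 0.81 (SE 0.10, adjusted p 6.97e-06 by edgeR) and 0.59 (SE 0.10, adjusted p 0.000171 by edgeR), and footprints by 0.98 (SE 0.14, adjusted p 5.68e-05 by edgeR) and 0.67 (SE 0.14, adjusted p 0.00196 by edgeR).

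DDX18 RNA stood at 72.0, 85.6 and 83.9 CPM in SC, 138, 144 and 125 in SH2, and 119, 128 and 125 in SH3. Its footprints were 77.3, 71.6 and 64.1 CPM in SC, 153, 131 and 137 in SH2, and 122, 136 and 111 in SH3. All 6 hairpin libraries were above SC in both measures. RNA rose by 0.75 (SE 0.10, adjusted p 1.54e-05 by edgeR) and 0.62 (SE 0.10, adjusted p 0.000124 by edgeR), and footprints by 0.98 (SE 0.14, adjusted p 5.04e-05 by edgeR) and 0.79 (SE 0.14, adjusted p 0.000505 by edgeR). RefSeq lists 6 named pseudogenes of DDX18, so its counts depend on how shared reads were placed.

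DDX56 rose in RNA by 0.62 and 0.43 and in footprints by 0.75 in SH2, with 0.35 in SH3 not past the test. DDX51 rose in RNA by 0.65 and 0.56, at 14.8 to 29.7 CPM, and its SH3 call was lost without SH3 replicate 2 (0.42). DDX51 footprints changed by 0.10 and 0.49. DDX54 footprints were 129.7, 95.6 and 123 CPM in SC, 87.8, 71.3 and 96.8 in SH2, and 132, 158 and 157 in SH3. They fell by 0.46 in SH2 (SE 0.16, adjusted p 0.0278 by edgeR) and changed by 0.36 in SH3, and the hairpins differed by -0.81 (SE 0.16, adjusted p 0.00187 by edgeR). The SH2 call of DDX54 was lost without SC replicate 1 (-0.37), SC replicate 3 (-0.41), SH2 replicate 1 (-0.47) or SH2 replicate 2 (-0.33).

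**Figure D4:**
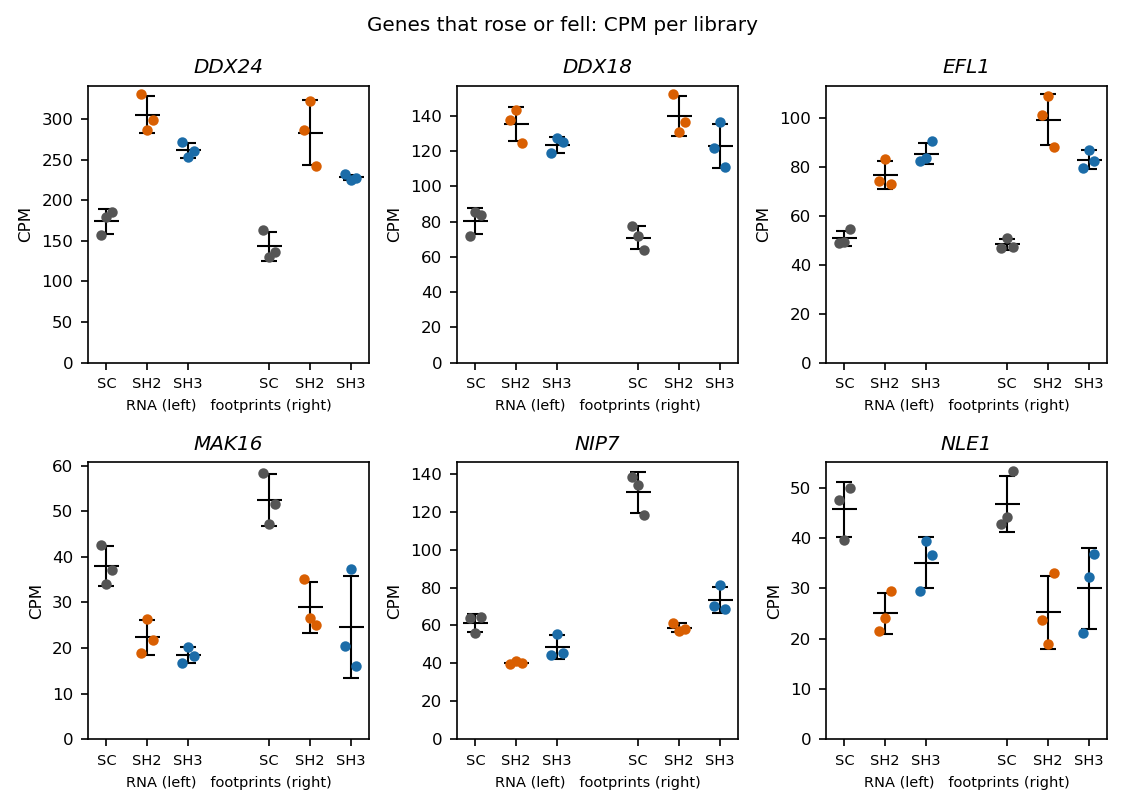
CPM per library (points), group mean and SD (bars, n = 3) of 3 genes that rose (DDX24, DDX18, EFL1) and 3 that fell (MAK16, NIP7, NLE1) in RNA (left of each panel) and footprints (right). In every panel the hairpin libraries lie on 1 side of the SC libraries.

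The nucleolar GTPases GNL2, GNL3 (nucleostemin), GNL3L and GTPBP4 act as checkpoints at successive steps. GNL2 was the one that passed the test against SC, in SH3, where it rose by 0.44 in RNA (SE 0.09, adjusted p 0.000882 by edgeR) and 0.65 in footprints (SE 0.15, adjusted p 0.00273 by edgeR). In SH2 its changes were 0.20 and 0.22. GNL2 differed between the hairpins by -0.24 in RNA and -0.43 in footprints. GNL3, GNL3L and GTPBP4 had RNA changes between -0.09 and 0.17 over both hairpins. Per RefSeq, GNL3 holds 5 small nucleolar RNA genes in its gene region.

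Of the genes of AAA-ATPase remodelling, NVL is described above. MDN1, the giant ATPase that pulls assembly factors off the particle, and its substrate NLE1 were lower in SH2. NLE1 RNA stood at 47.6, 39.6 and 49.9 CPM in SC, 21.5, 24.0 and 29.6 in SH2, and 29.4, 39.4 and 36.6 in SH3. NLE1 footprints stood at 42.9, 44.2 and 53.3 CPM in SC, 23.7, 18.9 and 33.0 in SH2, and 21.1, 32.2 and 36.8 in SH3. All hairpin libraries were below SC, narrowly so in SH3 RNA. RNA fell by 0.87 in SH2 (SE 0.14, adjusted p 0.00013 by edgeR) and by 0.38 in SH3 (SE 0.14, adjusted p 0.0351 by edgeR), and footprints fell by 0.91 (SE 0.22, adjusted p 0.00365 by edgeR) and 0.62 (SE 0.22, adjusted p 0.0406 by edgeR). The SH3 calls were lost without SC replicate 3 (-0.31 in RNA, -0.50 in footprints) and without SH3 replicate 1 (-0.31 and -0.43). The RNA call was also lost without SC replicate 1 (-0.37). The footprint call was also lost without SH3 replicate 2 (-0.65) and with footprints thinned to 1 depth (-0.53).

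MDN1 RNA stood at 148, 156 and 161 CPM in SC, 85.8, 109 and 118 in SH2, and 153, 145 and 191 in SH3. It fell by 0.58 in SH2 (SE 0.13, adjusted p 0.00129 by edgeR), changed by 0.07 in SH3, and differed between the hairpins by -0.65 (SE 0.13, adjusted p 0.00128 by edgeR). MDN1 footprints did not pass the test against SC (-0.35 and 0.44) and differed between the hairpins by -0.80 (edgeR adjusted p 0.00409). WDR74, released from the particle by NVL, rose in SH2 RNA by 0.35, a call lost without SC replicate 2 (0.25) or SH2 replicate 3 (0.26).

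The rixosome genes PELP1, TEX10, WDR18 and SENP3 and the ITS2 enzymes LAS1L, an endonuclease, and NOL9, a polynucleotide kinase, were called in either direction. In RNA 2 of 6 rose in SH2, and 3 rose and 1 fell in SH3. The shares of all genes were 31.1% higher and 30.4% lower in SH2, and 27.8% and 25.2% in SH3. PELP1 rose by 0.62 (SE 0.12, adjusted p 0.000531 by edgeR) and 0.59 (SE 0.12, adjusted p 0.00108 by edgeR) in RNA, with footprint changes of 0.28 and 0.31 not past the test. WDR18 rose in SH2 RNA by 0.44. NOL9 rose in SH3 RNA by 0.36, a call lost without SC replicate 1 (0.28), SC replicate 3 (0.33), SH3 replicate 2 (0.28) or SH3 replicate 3 (0.33).

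LAS1L RNA stood at 46.0, 42.2 and 50.8 CPM in SC, 46.9, 48.4 and 54.5 in SH2, and 32.0, 34.7 and 34.4 in SH3. LAS1L footprints stood at 90.9, 89.7 and 98.9 CPM in SC, 68.1, 76.5 and 84.8 in SH2, and 43.9, 60.9 and 56.8 in SH3. The SH3 libraries were the lowest in both measures. In SH3 RNA fell by 0.46 (SE 0.10, adjusted p 0.002 by edgeR) and footprints by 0.78 (SE 0.15, adjusted p 0.0011 by edgeR), while in SH2 the changes were 0.11 and -0.29 and did not pass.

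TEX10 footprints stood at 83.6, 120.5 and 98.2 CPM in SC, 142, 167 and 159.9 in SH2, and 163, 151 and 139.9 in SH3, above SC in all 6 libraries. They rose by 0.65 (SE 0.15, adjusted p 0.00244 by edgeR) and 0.59 (SE 0.15, adjusted p 0.00628 by edgeR). TEX10 RNA changed by 0.14 in SH2 and rose in SH3 by 0.24, a call lost without any 1 of the SC or SH3 libraries, down to 0.16 without SH3 replicate 1. SENP3, the SUMO protease that acts on PELP1, had footprints of 8.60, 5.48 and 4.97 CPM in SC, 6.30, 6.29 and 5.18 in SH2, and 8.78, 14.04 and 11.6 in SH3, on 13 to 53 counts per library. They rose in SH3 by 0.84 (SE 0.29, adjusted p 0.0304 by edgeR), a call lost without SC replicate 2 (0.78), SC replicate 3 (0.67), SH3 replicate 2 (0.68) or SH3 replicate 3 (0.86). This call was also lost with footprints thinned to 1 depth (0.74).

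The export and cytoplasmic factors act last. NMD3 bridges the 60S particle to the exporter XPO1, LSG1 is the cytoplasmic GTPase that releases NMD3, and EFL1 with SBDS evicts the anti-association factor eIF6. Of the 7 genes 3 rose and 1 fell in SH2 in RNA and again in footprints. In SH3 4 rose in RNA and 3 in footprints, and 0 fell. Shares of all genes called higher were 31.1% in SH2 RNA, 27.8% in SH3 RNA, 21.0% in SH2 footprints and 16.9% in SH3 footprints.

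LSG1 moved in opposite directions with the hairpins. LSG1 RNA stood at 66.9, 65.6 and 62.0 CPM in SC, 40.7, 45.1 and 41.8 in SH2, and 89.8, 95.1 and 96.4 in SH3. LSG1 footprints stood at 74.0, 71.2 and 70.1 CPM in SC, 49.2, 35.9 and 36.3 in SH2, and 102, 97.2 and 93.6 in SH3. The 3 groups did not overlap in either measure, with SH2 lowest and SH3 highest. RNA fell by 0.61 in SH2 (SE 0.09, adjusted p 4.74e-05 by edgeR) and rose by 0.53 in SH3 (SE 0.09, adjusted p 0.000193 by edgeR). Footprints fell by 0.84 in SH2 (SE 0.15, adjusted p 0.000404 by edgeR) and rose by 0.44 in SH3 (SE 0.15, adjusted p 0.0273 by edgeR). Between the hairpins RNA differed by -1.14 (SE 0.09, adjusted p 6.52e-07 by edgeR) and footprints by -1.28 (SE 0.15, adjusted p 3.32e-05 by edgeR). The SH3 footprint rise was lost without SC replicate 3 or any 1 SH3 library, at changes of 0.42 to 0.48.

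EFL1 rose in every comparison with SC in RNA and footprints. EFL1 RNA stood at 48.7, 49.3 and 54.4 CPM in SC, 74.0, 83.0 and 72.9 in SH2, and 82.3, 83.6 and 90.5 in SH3. EFL1 footprints stood at 46.9, 51.0 and 47.0 CPM in SC, 101, 109 and 88.1 in SH2, and 79.6, 87.0 and 82.4 in SH3. The hairpin libraries were all above SC. RNA rose by 0.59 (SE 0.09, adjusted p 9.81e-05 by edgeR) and 0.75 (SE 0.09, adjusted p 2.16e-05 by edgeR), and footprints by 1.05 (SE 0.14, adjusted p 2.51e-05 by edgeR) and 0.79 (SE 0.14, adjusted p 0.000506 by edgeR). SBDS, its partner, passed no test, with RNA changes of 0.04 and 0.11.

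NMD3 RNA stood at 50.4, 58.8 and 51.3 CPM in SC, 96.6, 111 and 90.04 in SH2, and 60.3, 70.9 and 65.9 in SH3. NMD3 footprints stood at 66.2, 68.2 and 66.9 CPM in SC, 130.3, 120.0 and 113 in SH2, and 82.0, 72.2 and 53.6 in SH3. SH2 was high in both measures. In SH2 RNA rose by 0.89 (SE 0.11, adjusted p 9.01e-06 by edgeR) and footprints by 0.85 (SE 0.15, adjusted p 0.00036 by edgeR). In SH3 RNA rose by 0.30 (SE 0.11, adjusted p 0.0321 by edgeR), a call lost without SC replicate 1 (0.24), SC replicate 3 (0.27), SH3 replicate 2 (0.21) or SH3 replicate 3 (0.26), and footprints changed by 0.04. The hairpins differed by 0.60 in RNA (edgeR adjusted p 0.000702) and 0.82 in footprints (edgeR adjusted p 0.00151).

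ZNF622, the relative of the yeast cytoplasmic factor Rei1, rose in SH2 by 0.80 in RNA and 0.60 in footprints. In SH3 its RNA changed by 0.22, short of the threshold, and its footprints rose by 0.44. That footprint call was lost without SC replicate 3 (0.38) or SH3 replicate 2 (0.44), and with footprints thinned to 1 depth (0.39). RSL24D1 rose in SH3 RNA by 0.53, a call lost without SH3 replicate 2 (0.45) or SH3 replicate 3 (0.44), and its 11 named pseudogenes leave its counts uncertain. Its SH2 RNA change of 0.30 passed with the replicate block (0.33, edgeR adjusted p 0.0166, range over its 12 alternatives 0.0166 to 0.521). MRTO4, which holds the place of the stalk protein P0 on the particle, passed no test.

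**Figure D5:**
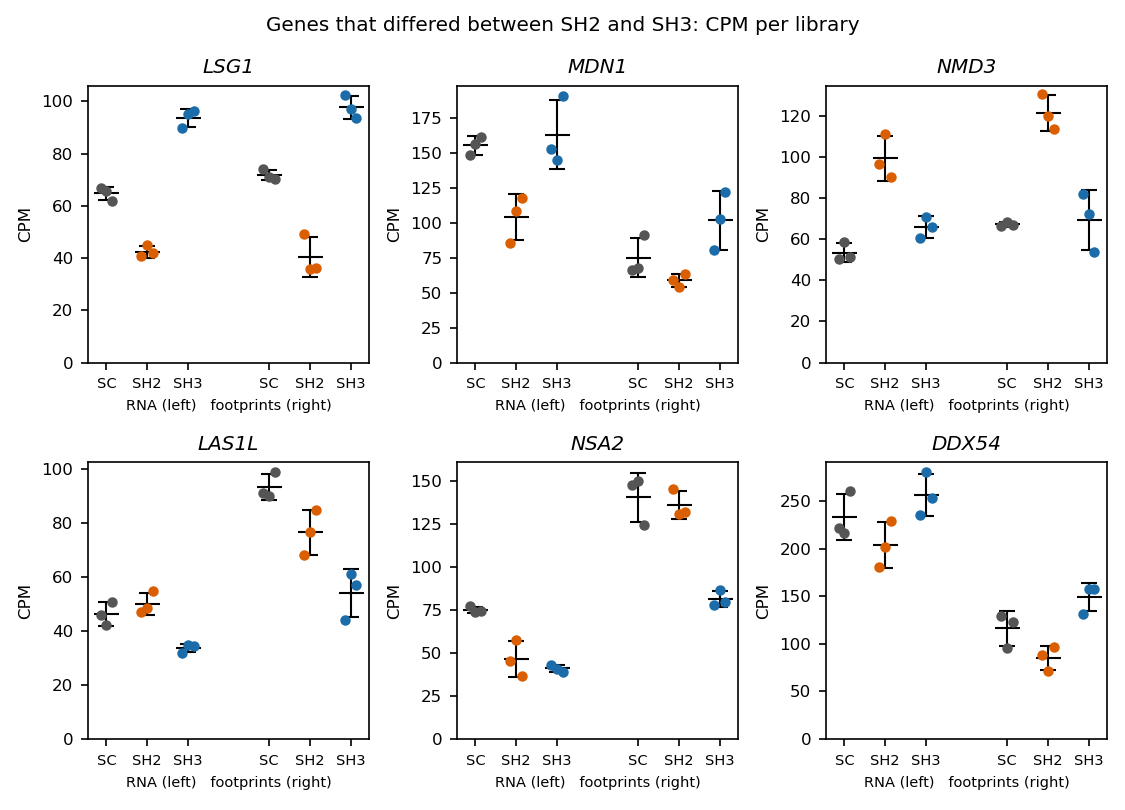
CPM per library (points), group mean and SD (bars, n = 3) of 6 genes that differed between SH2 and SH3 in RNA, footprints or both (LSG1, MDN1, NMD3, LAS1L, NSA2, DDX54), with RNA left and footprints right in each panel. LSG1 is lowest in SH2 and highest in SH3, and NMD3 is highest in SH2.

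Compared directly, SH2 and SH3 differed in 14 of 53 members in RNA, 4 higher and 10 lower in SH2, against 39.3% of all genes tested, 18.9% higher and 20.4% lower. In footprints 12 of 52 differed, 5 higher and 7 lower in SH2, against 23.8% of genes, 12.1% higher and 11.6% lower. With plain library totals the footprint split was 2 higher and 9 lower. Under that scaling the median footprint difference over all genes was -0.06, and the share of all genes called is not given here. The RNA count was 6 without SH3 replicate 3, 8 without SH2 replicate 1 and 9 without SH2 replicate 3. The footprint count was 5 without SH2 replicate 2 or SH2 replicate 3 and 7 without SH3 replicate 1 or SH3 replicate 2.

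Other genes of the pathway, not among the 53, were taken from a list of 28 that holds CEBPZ, URB1, NPM1, EIF6, XPO1 and others. In RNA 8 rose and 8 fell in SH2 and 8 rose and 7 fell in SH3, with medians of 0.01 and 0.12. In footprints 2 rose and 12 fell in SH2 and 2 rose and 3 fell in SH3. The footprint shares of all genes were 21.0% higher and 23.2% lower in SH2, and 16.9% and 19.0% in SH3. Those in RNA were 31.1% higher and 30.4% lower in SH2, and 27.8% and 25.2% in SH3. Of 46 tested 40S assembly factors, 20 rose and 5 fell in SH2 RNA and 24 rose and 2 fell in SH3 RNA, with medians of 0.19 and 0.28, beside 0.19 and 0.23 for the 60S factors.

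The authors' deposited table gives the hairpin comparisons by DESeq2. At an adjusted p under 0.05 the authors' deposited table has, for RNA, 20 members up and 10 down with SH2 and 22 up and 8 down with SH3. For footprints the authors' deposited table has 11 up and 8 down with SH2 and 13 up and 6 down with SH3. The shares of all genes called in these columns are not given here, so these counts have no background. Another measure in the authors' deposited table, named RD, has the same log2 change and adjusted p in the SH2 and SH3 columns for all 17017 genes. Its p-value lay within 1% of a joint DESeq2 likelihood-ratio test of both hairpins in all 17017 genes, and its log2 change differed from the SH3 translational efficiency of DESeq2 by a median of 0.000388, against 0.26 for SH2. Of 52 members with an RD adjusted p in the authors' deposited table, 11 were under 0.05, and the share of all genes is not given here. For EBNA1BP2 that table lists an RD log2 change of -0.12 beside an adjusted p of 0.000327, and for NOP53 a change of 1.30 beside 6.34e-08.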

How the data were processed

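RNA and ribosome footprints of MDA-MB-231 cells were read from 1 deposited table with 18 libraries in 6 groups of 3. Its count columns hold the authors' whole-number read counts per gene. The signal columns, which the authors normalized per the file headers, served only to check the counts. Its log2 fold changes and p-values are the authors' DESeq2 comparisons, per the file headers. Bowtie 1.2.2 and DESeq2 are named in the submitters' processing notes; the build, annotation, strand and treatment of shared reads are not given in the sources used here, so overlapping, antisense and near-identical genes cannot be told apart. The table's label carries 26 and 30, read as footprint lengths, which is not stated.

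Counts were tested in edgeR 4.0.16 (R 4.3.3) with filterByExpr, TMM scaling and glmQLFit and glmQLFTest, two-sided, with Benjamini-Hochberg adjustment over all genes tested and a threshold of 0.05. RNA and footprints were each fitted over 9 libraries, and translational efficiency as the footprint change minus the RNA change over all 18. The steps were tested on simulated data. SE is the absolute log2 change divided by the square root of F. The spread between replicates (biological coefficient of variation) was 11.6% in RNA and 15.1% in footprints, and no replicates agreed within counting noise (chi-square per degree of freedom 3.38 to 56.3). Alternatives were DESeq2 1.42.0, median-ratio factors, plain totals, no low-count filter, only the groups compared, a replicate block, footprints thinned to 1662705 counts, and leaving out each replicate. Same-numbered SC and SH2 libraries deviated together from their group means (correlations 0.349 to 0.393 in RNA, 0.231 to 0.278 in footprints), so the numbers pair these groups, a pairing seen in the data that no label states. With SH3 the correlations reached down to -0.141. Between RNA and footprints, same numbers gave 0.205 to 0.397 in SH3, against -0.287 to 0.0718 for different numbers. Same numbers gave -0.477 to 0.26 in SC and -0.299 to 0.478 in SH2. RNA 1 with footprints 2 gave 0.552 in SC and 0.543 in SH2, and RNA 2 with footprints 1 gave 0.446 and 0.476. Why these crossed numbers matched was not tested. Ratios per library and translational efficiency fits without a replicate use the numbers as given. In translational efficiency the block is the treatment and number that an RNA and a footprint library share.

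The 53 members and all lists were chosen with earlier results of these data known. Full values are given for members with the 3 largest rises and 3 largest falls called in both hairpins, those called in opposite directions, those called in translational efficiency, and PeBoW. Other members with full values were chosen after their values were seen. Levels per coding length were not computed.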

Additional observations from a re-analysis of the deposited data

Results flagged for a closer look

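The effects of the 2 hairpins, each against SC, differed by the direct test of SH2 against SH3 in 26 member results, 14 in RNA and 12 in footprints. The values are log2 differences (SH2 minus SH3) with an edgeR adjusted p under 0.05. In RNA LSG1 (-1.14), MDN1 (-0.65), NOC3L (-0.50), NLE1 (-0.49), TMA16 (-0.38), RPF1 (-0.34), RPF2 (-0.34), DDX54 (-0.33), RSL1D1 (-0.33) and GNL2 (-0.24) were lower in SH2, and NMD3 (0.60), ZNF622 (0.59), LAS1L (0.57) and NOC2L (0.31) were higher. In footprints LSG1 (-1.28), SENP3 (-0.97), DDX54 (-0.81), MDN1 (-0.80), RPF2 (-0.72), EBNA1BP2 (-0.53) and GNL2 (-0.43) were lower in SH2, and NMD3 (0.82), NSA2 (0.73), NVL (0.60), LAS1L (0.49) and DDX56 (0.40) were higher. LSG1, MDN1, NMD3, LAS1L, GNL2, DDX54 and RPF2 differed in both measures, in the same direction in each. Of the 14 RNA differences 6 were called under every alternative, and of the 12 in footprints 5.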

How the results depend on the processing

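Of 130 called results over members and comparisons, 81 were called under every alternative, 49 were lost under at least 1, and 0 reversed. Over all of them 196 of 1616 alternative values missed the threshold. By comparison, calls kept under every alternative numbered 26 of 30 in SH2 RNA, 15 of 30 in SH3 RNA, 16 of 20 in SH2 footprints, 12 of 19 in SH3 footprints, 1 of 4 in SH2 translational efficiency (NOP53) and 0 of 1 in SH3. Leaving out each replicate gave 27 to 30 calls in SH2 RNA, 19 to 30 in SH3 RNA and 6 to 14 between hairpins in RNA. In footprints it gave 17 to 21, 12 to 22 and 5 to 10, and in translational efficiency 1 to 4, 0 to 1 and 0 to 0. DESeq2's Wald test called 10, 2 and 3 members in translational efficiency in SH2, in SH3 and between hairpins, in place of 4, 1 and 0. Its shares of all genes are not given here. Between hairpins no low-count filter gave 1, and only the groups compared gave 1, in both cases EBNA1BP2. Plain library totals gave 2 higher and 4 lower in SH2 translational efficiency, where the median over all genes was -0.10 and their share called is not given here. These totals moved the median RNA change of all genes to 0.11 in SH2 and 0.12 in SH3. The cause was not tested. The numbers pair SC with SH2, and RNA with footprints within SH3, as the processing section gives. They do not pair RNA with footprints throughout within SC or SH2, or SH3 with the other groups. With the replicate block the counts were 32, 34 and 15 in RNA, 20, 24 and 14 in footprints, and 3, 1 and 0 in translational efficiency. Against SC the block changed the SH2 calls of WDR12, RSL24D1 and NVL and no other SH2 call. Few footprint counts limit low genes such as PPAN, SENP3 and MAK16. With footprints thinned to 1 depth, footprint calls against SC were lost for EBNA1BP2 and FTSJ3 in SH2 and for SENP3, NLE1 and ZNF622 in SH3. The deposited table also holds the read-through genes PPAN-P2RY11 and SENP3-EIF4A1, and their part in the counts of PPAN and SENP3 was not tested.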
